A study of Mus musculus with 8 samples.

Results

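Costimulatory and inhibitory receptors are surface proteins that raise or lower the response of a lymphocyte when they meet a ligand on a neighbouring cell. The group described here holds 10 of the 50686 genes in the table: the costimulatory receptors Icos and Cd28 and the inhibitory receptors Ctla4, Pdcd1, Tigit, Btla, Lag3, Havcr2, Klrg1 and Cd200r1. They were chosen by name, and all 10 were found by their Ensembl identifier and passed the filter on low counts.

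The libraries were bulk RNA sequencing of ILC2 (group 2 innate lymphoid cells), the innate counterpart of type 2 helper T cells, from the thymus of C57BL/6 plck-Id1 mice. In these animals the proximal Lck promoter, active in developing T cells, drives Id1, an inhibitor of E proteins, and every group shared this transgene. MIGR1 retrovirus brought in GFP and E47-ER, or GFP alone, and transduced cells were sorted for GFP. E47 is an E protein encoded by Tcf3, and its fusion to the estrogen receptor makes its activity depend on 4-hydroxytamoxifen. The labels list IL-7, IL-25 and IL-33 as the cytokines of the culture, and also the word ILC2 among them. All groups were given 4-hydroxytamoxifen, which makes 4 groups of 2 libraries each: E47-ER at 4 h, GFP at 4 h, E47-ER at 16 h and GFP at 16 h. E47-ER cells without the drug were not analysed here, so a response to E47 activity and a difference that preceded the drug cannot be told apart. Nothing in the labels ties the libraries of a group to separate animals or cultures. The p-values then measure only how far these libraries differ, and that may be technical.

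In ILC2, Icos and its ligand are known to support cell survival and cytokine production, Klrg1 is used as a marker of mature or activated cells, and PD-1, the product of Pdcd1, is known to restrain proliferation and cytokine output. Most of the other receptors are better known from T cells, where they share ligands and compete for them: Cd28 and Ctla4 both bind Cd80 and Cd86, and Tigit binds Pvr and Nectin2, which also bind the activating receptor Cd226. E47 binds DNA at E boxes, the motif CANNTG.

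The libraries held 8813782 to 18677675 counts. Esr1, to which reads of the estrogen receptor part would be assigned, was at 52.6 and 45.6 CPM, the count relative to the scaled library total, in E47-ER cells at 4 h, against 0.316 and 0.211 CPM in GFP cells, and at 43.8 and 54.5 CPM in E47-ER cells at 16 h, against 0.537 and 0.932 CPM in GFP cells. Tcf3 was at 151 and 163 CPM in E47-ER cells at 4 h, against 79.4 and 81.4 CPM in GFP cells, and at 146 and 169.9 CPM in E47-ER cells at 16 h, against 87.6 and 67.6 CPM in GFP cells. Counts of Tcf3 may include the E47 part of the construct. Id1, whose counts may include the transgene, was at 66.4 and 59.9 CPM in E47-ER cells at 4 h, against 36.8 and 23.7 CPM in GFP cells. At 16 h Id1 was at 81.4 and 67.6 CPM in E47-ER cells, against 30.03 and 13.8 CPM in GFP cells. In every case both E47-ER libraries lay above both GFP libraries. Replicate 2 of GFP at 16 h, with the lowest total, stood apart: its mean correlation with the other libraries across genes was 0.954, against 0.980 to 0.983 for the other 7. Relative to the other 3 GFP libraries it was shifted by transcript length, with a median log2 difference of 0.55 for the fifth of genes with the shortest exons and -0.32 for the fifth with the longest. Calls of the receptors and of their lists are given with and without it, and also without replicate 1 of the same group where that changes them.

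The ILC2 markers, a list of 13 genes with Gata3, Il1rl1, Rora, Il5 and Il13 among them, were all detected. They summed to 20903 to 21230 CPM in E47-ER cells at 4 h, against 23842 to 25707 CPM in GFP cells. At 16 h they summed to 19450 to 19897 CPM in E47-ER cells, against 23405 to 29296 CPM in GFP cells. The E47-ER sums lay below the GFP sums at both times, mostly through the abundant Il13 and Il5. The list had no common direction: Rora, Id2, Il17rb, Bcl11b, Ptprc and Thy1 averaged higher in E47-ER cells at both times. The B cell list never exceeded 1.33 CPM. The myeloid list summed to 8.13 to 8.90 CPM in E47-ER cells at 4 h, against 4.44 to 6.07 CPM in GFP cells, and to 7.61 to 9.06 CPM in E47-ER cells at 16 h, against 4.79 to 6.25 CPM in GFP cells. The 10 T cell markers summed to 164 to 167 CPM in E47-ER cells at 4 h, against 111 to 115 CPM in GFP cells, and to 235 to 246 CPM in E47-ER cells at 16 h, against 113 to 145 CPM in GFP cells. Their E47-ER libraries lay above the GFP libraries at both times, mostly through Trbc2 and Trbc1. At 4 h Trbc2 averaged 59.8 CPM in E47-ER cells and 20.7 CPM in GFP cells, and Trbc1 17.5 and 4.58 CPM. Cd3e averaged 29.0 CPM in E47-ER cells and 28.5 CPM in GFP cells at 4 h, and Cd247 51.0 and 52.0 CPM. Cd8a had no count in 3 of the 4 groups and Cd4 averaged 0.137 to 0.366 CPM per group. The regulatory T cell list (Foxp3, Ikzf2 and Ikzf4) summed to 145 to 162 CPM in E47-ER cells at 4 h, against 162 to 173 CPM in GFP cells, and to 136 to 142 CPM in E47-ER cells at 16 h, against 146 to 150.3 CPM in GFP cells. Most of these sums was Ikzf4 and Ikzf2, and Foxp3 went the other way. Foxp3 averaged 11.3 CPM in E47-ER cells and 10.2 CPM in GFP cells at 4 h, and 12.6 and 6.09 CPM at 16 h. Ikzf4 was lower in E47-ER cells at 4 h only, and Ikzf2 at both times. The ILC3 list summed to 61.7 to 75.6 CPM in all libraries. The NK and ILC1 list, nearly all of it Gzma, summed to 5304 to 7921 CPM in E47-ER cells at 4 h, against 3053 to 3536 CPM in GFP cells, and to 6412 to 7942 CPM in E47-ER cells at 16 h, against 2919 to 7519 CPM in GFP cells. Its E47-ER libraries were the higher ones at 4 h and overlapped the GFP libraries at 16 h, while Ncr1, a defining NK cell receptor, had no count in any library. Several of these receptors are also expressed by T cells, and the part of the ILC2, T cell, NK and myeloid markers in the results was not tested.

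Per kilobase of exon, the scale on which genes can be compared, the 10 receptors covered a wide range. Icos stood first with a mean of 806 CPM per kb over the 8 libraries (range 712 to 874), which ranked 43 among 13627 genes. Klrg1 followed with 153 CPM per kb (114 to 263) and Tigit with 131 CPM per kb (102 to 175), and the ranges of this pair overlapped. Cd200r1 averaged 58.5 CPM per kb (55.3 to 61.3), below both and above Ctla4 without overlap. Ctla4 at 44.1 CPM per kb (35.9 to 50.6) and Havcr2 at 38.6 CPM per kb (28.7 to 48.9) overlapped each other. Cd28 was lower, at 11.3 CPM per kb (7.74 to 13.8), with no overlap with Havcr2 above or Pdcd1 below. The last 3 places were held by Pdcd1 at 2.45 CPM per kb (1.32 to 3.62), Lag3 at 1.16 CPM per kb (0.602 to 1.52) and Btla at 0.786 CPM per kb (0.471 to 1.14), each overlapping its neighbour in the order. Icos alone gave 75.1 to 79.2% of the counts of the 10 genes in each library, and the 10 genes together gave 0.328 to 0.387% of the counts of all tested genes.

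**Figure D1:**
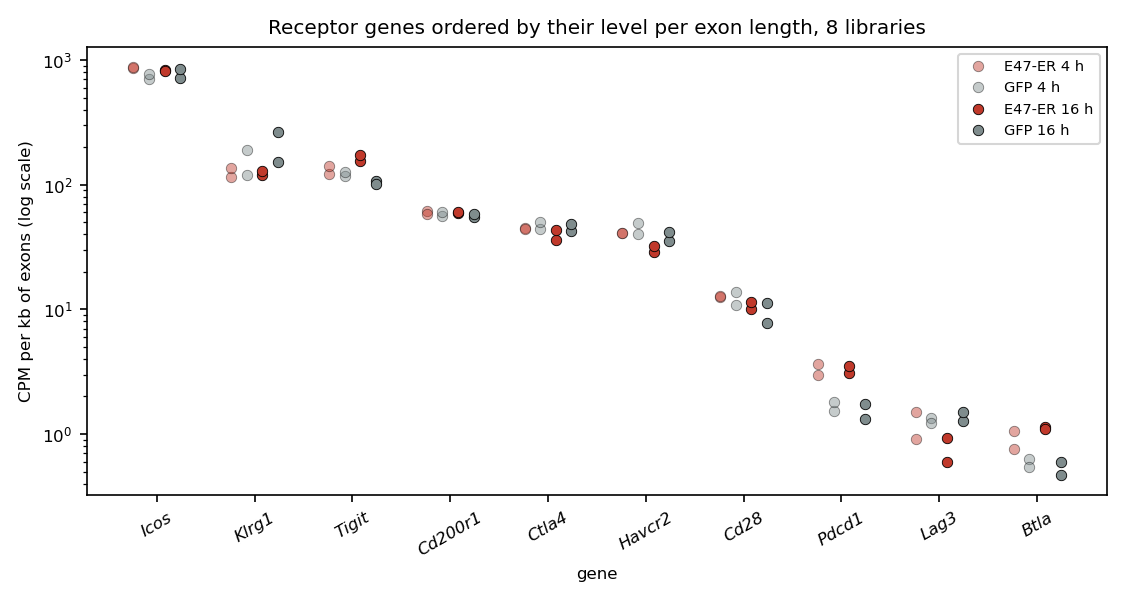
CPM per kilobase of exon (log scale) of the 10 receptor genes in each of the 8 libraries, in the order of their mean; pale points are 4 h and dark points 16 h, red E47-ER and grey GFP. Icos stands at 712 to 874 CPM per kb in every library, and Pdcd1, Lag3 and Btla lie below 4 CPM per kb.

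The central comparison asked which receptors E47-ER cells held at another level than GFP cells. At 4 h, edgeR's quasi-likelihood test with Benjamini-Hochberg adjustment over all 13644 tested genes called 0 of the 10 receptors at an adjusted p under 0.05, where it called 0.286% of all tested genes. At 16 h it called 0 of the 10, where it called 1.59% of all tested genes. At an unadjusted p under 0.05 there was 1 receptor at 4 h (Pdcd1) and there were 5 at 16 h (Pdcd1, Tigit, Btla, Klrg1 and Lag3). Of all 13644 tested genes, 794 at 4 h and 3273 at 16 h had such a p. DESeq2 called 0 of the 10 at 4 h, against 0.912% of all genes, and 2 at 16 h (Pdcd1 and Tigit), against 8.92%. The count with limma voom and quality weights was 1 at 4 h (Pdcd1), against 2.94% of all genes, and 0 at 16 h, against 0.381%. With GFP 16 h replicate 2 left out, edgeR called Pdcd1 at 4 h, where it called 4.33% of all genes tested there, and Pdcd1 and Tigit at 16 h, where it called 8.92%. Without replicate 1 of the same group it called Pdcd1 at 4 h, against 4.29% of all genes, and 6 receptors at 16 h (Pdcd1, Tigit, Btla, Havcr2, Klrg1 and Cd28), against 48.6% of all genes. In these fits the GFP group at 16 h is 1 library, and its spread is taken to be that of the other groups. The median log2 fold change over the 10 receptors was 0.04 at 4 h and 0.07 at 16 h, so the group as a whole had no common direction: 6 of the 10 had a positive value at each time. In bulk libraries like these, fewer cells of a type and less RNA per cell cannot be told apart for any receptor.

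Read by library, both E47-ER libraries lay above both GFP libraries at 4 h for Icos, Pdcd1 and Btla, which is 3 of 10 receptors against 22.4% of all tested genes. No receptor had both E47-ER libraries below both GFP libraries at 4 h, against 22.9% of all tested genes. At 16 h both E47-ER libraries lay above both GFP libraries for Pdcd1, Tigit, Btla and Cd200r1, 4 of 10 against 27.8% of all tested genes. They lay below both GFP libraries for Lag3, Havcr2 and Klrg1, 3 of 10 against 26.6% of all tested genes. Apart from the 0 below at 4 h, these counts of receptors were close to the shares over all genes. Pdcd1 and Btla were separated upwards at both times.

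**Figure D2:**
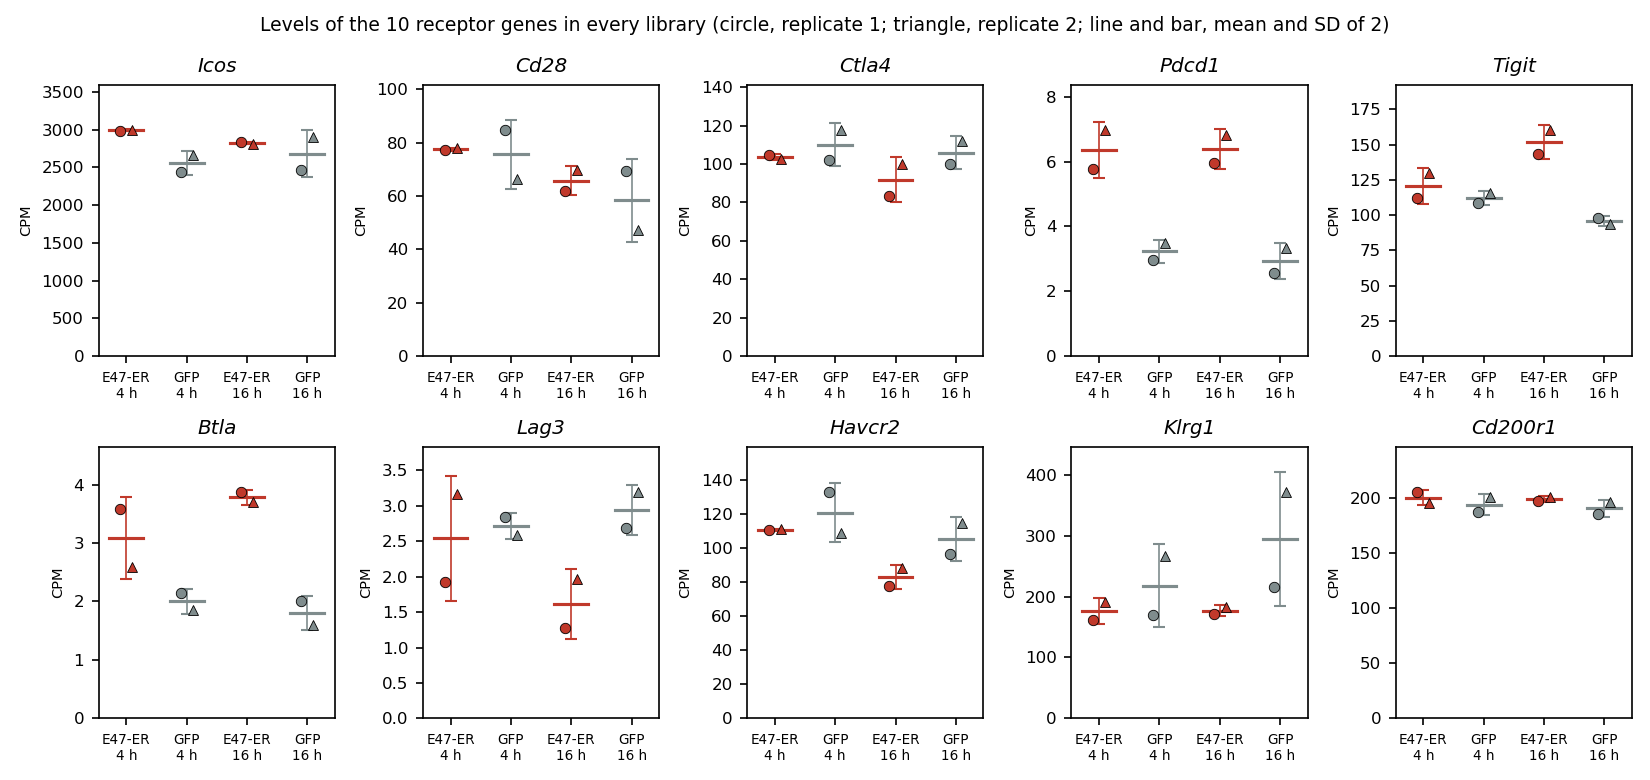
CPM of each receptor gene in every library, with E47-ER (red) left of GFP (grey) at 4 h and at 16 h; circles are replicate 1, triangles replicate 2, lines the mean and bars the SD of 2 libraries. Pdcd1 and Btla lie higher in both E47-ER libraries at both times and Tigit at 16 h, while Klrg1 is spread between 217 and 372 CPM in GFP cells at 16 h.

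Icos, on chromosome 1 (GRCm38, chr1:60977927-61000320, plus strand), signals through PI3K after binding Icosl. It was at 2981 and 2999 CPM in E47-ER cells at 4 h, against 2441 and 2670.3 CPM in GFP cells. At 16 h it was at 2831 and 2814 CPM in E47-ER cells, against 2466 and 2902 CPM in GFP cells. The E47-ER libraries were the higher ones at 4 h and lay between the GFP libraries at 16 h. E47-ER over GFP gave a log2 fold change of 0.23 at 4 h (95% interval -0.10 to 0.56, adjusted p = 1.0) and 0.07 at 16 h (-0.26 to 0.40, adjusted p = 0.760). Icos had 21795 to 50536 counts per library, the most of the group. With GFP 16 h replicate 2 left out, the value there was 0.19 (-0.01 to 0.38), and without replicate 1 it was -0.02 (-0.22 to 0.18).

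Cd28 (chr1:60716800-60773359, plus strand) lies upstream of Ctla4 and Icos in the same stretch of chromosome 1, and the 3 genes span 284 kb. It encodes the principal costimulatory receptor of T cells. It was at 77.1 and 77.9 CPM in E47-ER cells at 4 h, against 84.8 and 66.4 CPM in GFP cells, and at 61.8 and 69.6 CPM in E47-ER cells at 16 h, against 69.2 and 47.4 CPM in GFP cells. The groups overlapped at both times, with log2 fold changes of 0.04 (95% interval -0.42 to 0.50) at 4 h and 0.17 (-0.30 to 0.63) at 16 h. The low GFP value at 16 h, 47.4 CPM, belongs to replicate 2, in which this gene of 6122 exonic bases was 0.62 lower on the log2 scale than in the other 3 GFP libraries, against a median of -0.20 for genes of like length. Without that library the log2 fold change at 16 h was -0.08, and without replicate 1 of GFP at 16 h it was 0.49 (adjusted p = 0.00665), so its direction and its call were set by which GFP library was kept.

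Ctla4 (chr1:60887000-60915832, plus strand), the inhibitory counterpart of Cd28, was at 105 and 102 CPM in E47-ER cells at 4 h, against 102 and 118 CPM in GFP cells. The 16 h levels were 83.5 and 100.1 CPM in E47-ER cells, against 99.9 and 112 CPM in GFP cells. The groups overlapped at both times, at 16 h by the narrow margin between 100.1 and 99.9 CPM. On the log2 scale the difference was -0.08 at 4 h (95% interval -0.42 to 0.25) and -0.20 at 16 h (-0.54 to 0.13), neither called.

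Pdcd1, also on chromosome 1 (chr1:94038305-94052553, minus strand), encodes PD-1, which recruits the phosphatase encoded by Ptpn11. It was at 5.76 and 6.98 CPM in E47-ER cells at 4 h, against 2.97 and 3.49 CPM in GFP cells, and at 5.94 and 6.81 CPM in E47-ER cells at 16 h, against 2.55 and 3.33 CPM in GFP cells. All 4 E47-ER libraries lay above all 4 GFP libraries, and the means were 6.37 ± 0.86 CPM in E47-ER cells and 3.23 ± 0.36 CPM in GFP cells at 4 h. The means at 16 h were 6.38 ± 0.61 CPM in E47-ER cells and 2.94 ± 0.55 CPM in GFP cells (SD, n = 2 each). The log2 fold change was 0.97 at 4 h (95% interval 0.43 to 1.52, adjusted p = 0.313) and 1.15 at 16 h (0.57 to 1.72, adjusted p = 0.0736), which is 1.96-fold and 2.21-fold. Neither passed the adjusted threshold with all 8 libraries. Leaving out GFP 16 h replicate 2 gave 0.97 (adjusted p = 0.0109) at 4 h and 1.31 (adjusted p = 0.00615) at 16 h, and leaving out replicate 1 of that group gave 0.97 (adjusted p = 0.0110) at 4 h and 0.96 (adjusted p = 0.0202) at 16 h. The gene rested on 25 to 118 counts per library. The difference of its effect between the times was 0.17 (95% interval -0.62 to 0.96).

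Tigit, on chromosome 16 (chr16:43648867-43664146, minus strand), was at 112 and 129.7 CPM in E47-ER cells at 4 h, against 109 and 116 CPM in GFP cells. At 16 h it was at 144 and 161 CPM in E47-ER cells, against 98.2 and 93.3 CPM in GFP cells. The groups overlapped at 4 h and were apart at 16 h, with means of 152 ± 12.0 CPM in E47-ER cells and 95.8 ± 3.4 CPM in GFP cells (SD, n = 2 each). E47-ER over GFP gave a log2 fold change of 0.10 at 4 h (95% interval -0.20 to 0.41, adjusted p = 1.0) and 0.67 at 16 h (0.36 to 0.98, adjusted p = 0.0574), just outside the threshold. Leaving out GFP 16 h replicate 2 made the value at 16 h 0.62 (adjusted p = 0.000636), and without replicate 1 it was 0.73 (adjusted p = 2.12e-05). Tigit has the shortest exons of the group, 919 bases. Replicate 2 of GFP at 16 h, which was raised for short genes by a median of 0.55, held Tigit 0.20 lower on the log2 scale than the other 3 GFP libraries did.

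Btla, on chromosome 16 (chr16:45224315-45257670, plus strand), encodes an inhibitory receptor for Tnfrsf14. It was at 3.58 and 2.59 CPM in E47-ER cells at 4 h, against 2.15 and 1.85 CPM in GFP cells, and at 3.87 and 3.69 CPM in E47-ER cells at 16 h, against 2.02 and 1.60 CPM in GFP cells. Its E47-ER libraries lay above the GFP libraries at both times, but it was the rarest of the 10 per kilobase, with 12 to 64 counts per library. On the log2 scale the difference was 0.63 at 4 h (95% interval -0.01 to 1.27, adjusted p = 0.857) and 1.03 at 16 h (0.36 to 1.70, adjusted p = 0.126). With GFP 16 h replicate 2 left out, the 16 h value was 0.90 (adjusted p = 0.125), and without replicate 1 it was 1.26 (adjusted p = 0.0219). Tigit, Cd200r1 and Btla lie within 1609 kb of chromosome 16.

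**Figure D3:**
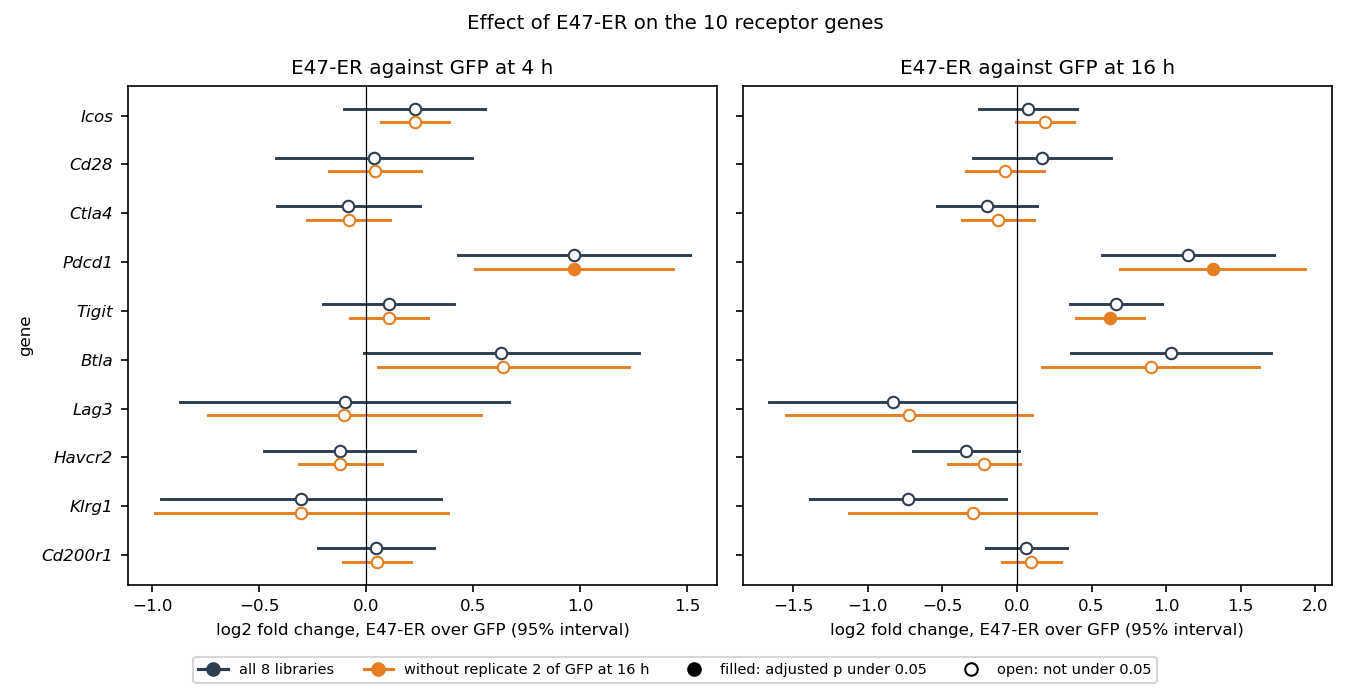
Log2 fold change of E47-ER over GFP for each receptor gene at 4 h (left) and 16 h (right) with its 95% interval, with all 8 libraries (dark) and without replicate 2 of GFP at 16 h (orange); filled points have an adjusted p under 0.05. With all 8 libraries no point is filled; without that library Pdcd1 is filled at both times and Tigit at 16 h.

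Lag3, on chromosome 6 (chr6:124904361-124911705, minus strand), binds MHC class II. It was at 1.92 and 3.17 CPM in E47-ER cells at 4 h, against 2.84 and 2.59 CPM in GFP cells, and at 1.27 and 1.96 CPM in E47-ER cells at 16 h, against 2.69 and 3.20 CPM in GFP cells. The groups overlapped at 4 h, and the E47-ER libraries were the lower ones at 16 h. The log2 fold change was -0.10 at 4 h (95% interval -0.87 to 0.67) and -0.83 at 16 h (-1.66 to -0.01, adjusted p = 0.205), on 19 to 49 counts per library. It was not called at either time.

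Havcr2, on chromosome 11 (chr11:46454935-46481255, plus strand), encodes TIM-3, a receptor for Lgals9. It was at 111 and 111 CPM in E47-ER cells at 4 h, against 133 and 109 CPM in GFP cells, and at 78.1 and 88.1 CPM in E47-ER cells at 16 h, against 96.4 and 115 CPM in GFP cells. Both E47-ER libraries at 16 h were below every other library of the study. E47-ER over GFP gave a log2 fold change of -0.12 at 4 h (95% interval -0.48 to 0.23) and -0.34 at 16 h (-0.70 to 0.01, adjusted p = 0.218), neither called. When GFP 16 h replicate 2 was left out, the 16 h value was -0.22 (adjusted p = 0.278), and without replicate 1 it was -0.44 (adjusted p = 0.00414).

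Klrg1, on chromosome 6 (chr6:122270596-122282882, minus strand), is a lectin-like inhibitory receptor for E-cadherin, the product of Cdh1. It was at 162 and 192 CPM in E47-ER cells at 4 h, against 169.9 and 266 CPM in GFP cells, and at 171 and 183 CPM in E47-ER cells at 16 h, against 217 and 372 CPM in GFP cells. The 4 E47-ER libraries lay close together, and the GFP libraries were spread more widely, with replicate 2 the higher one at both times. On the log2 scale the difference was -0.30 at 4 h (95% interval -0.96 to 0.35) and -0.73 at 16 h (-1.39 to -0.08, adjusted p = 0.182). Replicate 2 of GFP at 16 h held Klrg1 0.80 higher on the log2 scale than the other 3 GFP libraries, against a median of 0.55 for genes of like exon length (1414 bases in Klrg1). Without that library the value at 16 h was -0.30 (adjusted p = 0.664), and without replicate 1 it was -1.05 (adjusted p = 0.0482). The 4 h value was 0.055 when GFP 4 h replicate 2 was left out.

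Cd200r1, on chromosome 16 (chr16:44765736-44794978, plus strand), binds Cd200 and belongs to a family of similar neighbouring genes between which counting could split reads. It was at 205 and 195 CPM in E47-ER cells at 4 h, against 187 and 201 CPM in GFP cells, and at 197 and 201 CPM in E47-ER cells at 16 h, against 185 and 196 CPM in GFP cells. Its 8 libraries lay between 185 and 205 CPM. The log2 fold change was 0.05 at 4 h (95% interval -0.22 to 0.32) and 0.06 at 16 h (-0.21 to 0.34). Its 16 h libraries did not overlap, by a gap of about 1 CPM.

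Course over time was compared within each transduction, on the same libraries as above. In E47-ER cells, edgeR called 0 of the 10 receptors between 16 h and 4 h, where it called 0.0147% of all tested genes. An unadjusted p under 0.05 was found for 2 receptors (Havcr2 and Tigit) and for 695 of all tested genes. Havcr2 had a log2 fold change of 16 h over 4 h of -0.42 (95% interval -0.77 to -0.06, adjusted p = 0.981), and Tigit one of 0.33 (0.03 to 0.64, adjusted p = 0.981). Both were called with GFP 16 h replicate 2 left out, Havcr2 at -0.43 (adjusted p = 0.0160) and Tigit at 0.32 (adjusted p = 0.0485), against 3.08% of all genes, and without replicate 1 of that group again both, against 3.05% of all genes. Neither of these libraries enters the means of this comparison, only the shared estimate of spread. In GFP cells 0 of the 10 were called, against 0.0% of all tested genes, and none had an unadjusted p under 0.05, which 1238 of all tested genes had. Without replicate 1 of GFP at 16 h, Cd28 and Tigit were called, against 41.8% of all genes. DESeq2 and limma voom called 0 receptors in GFP cells, and each called 0 of all 13644 genes there. For E47-ER cells DESeq2 called 0 receptors, against 0.176% of all genes, and limma voom 1, Havcr2, against 2.76%.

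The difference of the E47-ER effect between 16 h and 4 h was tested directly. No receptor was called, and 0.0% of all tested genes were, with 671 of the 13644 at an unadjusted p under 0.05. Tigit was the 1 receptor with an unadjusted p under 0.05, with an effect larger at 16 h by 0.56 on the log2 scale (95% interval 0.13 to 0.995, adjusted p = 0.699). With GFP 16 h replicate 2 left out its value was 0.52 (adjusted p = 0.245), against 0.0424% of all genes called, and without replicate 1 it was 0.62 (adjusted p = 0.00191). That last fit also called Cd28, whose difference was 0.46 (adjusted p = 0.0479), against 0.13 with all libraries and -0.12 in the fit lacking replicate 2, and it called 35.5% of all genes. DESeq2 and limma voom called 0 of the 10 for this difference, and each called 0 of all 13644 genes.

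Promoter sequences are shown for Pdcd1, Tigit and Btla, the receptors whose E47-ER libraries were higher and which had an unadjusted p under 0.05 at 16 h, because E47 binds E boxes. RefSeq windows (GRCm38.p6) from 250 bases before to 50 after the start were at hand for 5 of the 10 receptors. E boxes (CANNTG, which reads the same on both strands) are in capitals, each sequence is on the strand of its gene, and the start is the base after the first 250. Pdcd1 is chr1:94052504-94052803 on the minus strand, Tigit chr16:43664135-43664434 on the minus strand and Btla chr16:45224087-45224386 on the plus strand.
Pdcd1: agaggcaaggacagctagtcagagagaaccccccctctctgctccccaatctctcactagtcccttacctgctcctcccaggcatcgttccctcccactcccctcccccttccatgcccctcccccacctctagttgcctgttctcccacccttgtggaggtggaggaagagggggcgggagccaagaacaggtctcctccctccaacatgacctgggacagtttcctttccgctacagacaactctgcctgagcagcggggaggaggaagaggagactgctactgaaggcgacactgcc
Tigit: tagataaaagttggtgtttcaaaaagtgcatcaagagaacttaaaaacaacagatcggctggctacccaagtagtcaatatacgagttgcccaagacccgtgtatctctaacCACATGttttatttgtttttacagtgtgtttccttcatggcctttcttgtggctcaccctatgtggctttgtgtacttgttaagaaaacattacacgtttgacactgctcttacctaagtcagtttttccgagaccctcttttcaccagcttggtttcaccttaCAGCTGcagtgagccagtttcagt
Btla: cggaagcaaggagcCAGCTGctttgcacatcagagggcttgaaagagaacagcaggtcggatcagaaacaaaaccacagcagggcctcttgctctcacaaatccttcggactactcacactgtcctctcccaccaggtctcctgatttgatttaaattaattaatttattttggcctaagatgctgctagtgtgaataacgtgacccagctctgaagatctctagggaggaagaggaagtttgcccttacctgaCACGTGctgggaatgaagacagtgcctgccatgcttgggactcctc
The Pdcd1 window held 0 E boxes, as did that of Havcr2. The Tigit window held 2, CACATG 138 bases before the start and CAGCTG at base 27 of the transcript, and the RefSeq start lies 38 bases from the GENCODE start of the gene. The Btla window held 2, CAGCTG 236 bases before the start and CACGTG at base 5. The Ctla4 window held 2, CAGGTG 19 bases before the start and CATATG at base 6, counted from a RefSeq start that lies 22025 bases from the GENCODE start of the gene. Of 32851 promoter windows of the same length, 72.3% held a CANNTG, 16.3% held CAGCTG and 20.2% held CAGGTG or CACCTG, motifs that are subsets of CANNTG. A match describes these letters and not binding, and sites outside the window were not searched.

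Of 17 ligands of these receptors, 13 passed the filter on low counts, and 2 rose at 16 h and none fell, where 1.59% of all tested genes were called, and 0 were called at 4 h, against 0.286%. With GFP 16 h replicate 2 left out, 3 rose at 16 h and none fell, against 8.92% of all genes called, and at 4 h 3 rose and 1 fell, against 4.33%. Leaving out replicate 1 gave 4 that rose and 3 that fell at 16 h (H2-Ab1, Pdcd1lg2 and Nectin2), against 48.6% of all genes, and the same counts as without replicate 2 at 4 h, against 4.29%. The median log2 fold change of the 13 was 0.10 at 4 h and 0.39 at 16 h, against -0.0043 and -0.0057 over all tested genes, and the 16 h median was 0.24 without GFP 16 h replicate 2. Lgals9, a galectin that binds Havcr2, was at 285 and 261 CPM in E47-ER cells at 4 h, against 160.0 and 163 CPM in GFP cells, and at 480.3 and 436 CPM in E47-ER cells at 16 h, against 159 and 163 CPM in GFP cells. Its log2 fold change at 16 h was 1.51 (SE 0.13, adjusted p = 0.00228), and with only the 4 libraries of that time in the fit it was not called (adjusted p = 0.136). Cdh1, the ligand of Klrg1, was at 5.89 and 5.04 CPM in E47-ER cells at 4 h, against 2.15 and 2.75 CPM in GFP cells, and at 7.41 and 11.7 CPM in E47-ER cells at 16 h, against 2.75 and 2.13 CPM in GFP cells. Its log2 fold change at 16 h was 1.93 (SE 0.31, adjusted p = 0.0249), and limma voom with quality weights did not call it. The ligands Lgals9 and Cdh1 were higher in the E47-ER libraries while their receptors Havcr2 and Klrg1 lay lower there at 16 h without being called. The call of Cdh1 was lost without any 1 library other than those of GFP at 16 h, with adjusted p of 0.0654 to 0.248, and with only the 4 libraries of that time (adjusted p = 0.266). Of the uncalled ligands with the smallest p at 16 h, H2-Aa averaged 9.70 ± 4.56 CPM in E47-ER cells and 3.85 ± 0.36 CPM in GFP cells, and Lgals3 662 ± 54.4 CPM in E47-ER cells and 437 ± 146 CPM in GFP cells (SD, n = 2 each). At 4 h, H2-Ab1 averaged 22.9 ± 2.23 CPM in E47-ER cells and 30.8 ± 0.78 CPM in GFP cells and H2-Aa 7.29 ± 2.71 CPM in E47-ER cells and 3.99 ± 0.26 CPM in GFP cells. The 4 ligands under the filter (Fgl1, Ceacam1, Nectin3 and Cd200) had 0 to 10 counts per library.

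Of 16 related receptors, 13 were tested, and 1 rose at 16 h and none fell, against 1.59% of all genes called, while 0 were called at 4 h, against 0.286%. In the fit lacking GFP 16 h replicate 2, 3 rose at 16 h, against 8.92% of all genes, and 4 at 4 h, against 4.33%, and none fell. The fit lacking replicate 1 gave 5 that rose and 1 that fell at 16 h, against 48.6% of all genes. The one that fell was Cd200r4, which rose in the fit lacking replicate 2, so its direction at 16 h turned on which GFP library was kept. Their median log2 fold change was 0.05 at 4 h and 0.68 at 16 h. Vsir, which encodes the inhibitory receptor VISTA, was at 134 and 151 CPM in E47-ER cells at 4 h, against 82.9 and 87.4 CPM in GFP cells. The 16 h levels were 224 and 232 CPM in E47-ER cells, against 90.0 and 84.3 CPM in GFP cells, a log2 fold change of 1.39 (SE 0.13, adjusted p = 0.00286). Its groups were far apart at both times, and its adjusted p was 0.0554 when E47-ER 16 h replicate 2 was left out and 0.136 with only the 4 libraries of that time. Of the uncalled genes with the smallest p at 16 h, Cd2, an adhesion receptor, averaged 18.4 ± 1.02 CPM in E47-ER cells and 10.5 ± 0.93 CPM in GFP cells, Cd244a 15.1 ± 1.21 CPM in E47-ER cells and 10.5 ± 0.54 CPM in GFP cells, and Lair1 3.04 ± 1.0 CPM in E47-ER cells and 1.37 ± 0.25 CPM in GFP cells (SD, n = 2 each). At 4 h, Cd2 averaged 14.6 ± 0.73 CPM in E47-ER cells and 10.1 ± 0.71 CPM in GFP cells. Among the neighbours of Cd200r1 at 4 h, Cd200r2 averaged 2.88 ± 0.91 CPM in E47-ER cells and 1.13 ± 0.18 CPM in GFP cells, and Cd200r4 57.2 ± 3.01 CPM in E47-ER cells and 38.3 ± 1.39 CPM in GFP cells. Havcr1, Timd4 and Cd5 were under the filter, with 0 to 6 counts per library.

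All 20 genes of the signalling list were tested, and 1 rose at 16 h and none fell, against 1.59% of all genes called, while 0 were called at 4 h, against 0.286%. In the fit lacking GFP 16 h replicate 2, 5 rose at 16 h, against 8.92% of all genes, and 4 at 4 h, against 4.33%, and none fell. The fit lacking replicate 1 gave 11 that rose and 1 that fell (Dok2) at 16 h, against 48.6% of all genes. Their median log2 fold change was 0.02 at 4 h and 0.29 at 16 h, the 16 h value being 0.11 without GFP 16 h replicate 2. Lck, the kinase that acts with Cd28 and the antigen receptor in T cells, was at 17.1 and 19.7 CPM in E47-ER cells at 4 h, against 13.8 and 11.5 CPM in GFP cells. At 16 h it was at 34.1 and 37.5 CPM in E47-ER cells, against 13.1 and 13.2 CPM in GFP cells, a log2 fold change of 1.44 (SE 0.16, adjusted p = 0.00646). Its exons share 25 bases with the microRNA gene Mir8119 on the same strand. Limma voom with quality weights did not call Lck at 16 h. Without 1 E47-ER library at 16 h its adjusted p was 0.0654 (without replicate 1) or 0.102 (without replicate 2), and 0.140 with only the 4 libraries of that time. The T cell marker list was also higher at 16 h, at 235 to 246 CPM in E47-ER cells, against 113 to 145 CPM in GFP cells. Most of that gap came from Trbc2, which averaged 102.5 CPM in E47-ER cells and 31.3 CPM in GFP cells, and Trbc1, 27.7 and 7.11 CPM. Cd3e averaged 36.1 CPM in E47-ER cells and 26.98 CPM in GFP cells, Cd247 64.2 and 55.6 CPM, and Trac 4.17 and 3.24 CPM. Cd3d and Cd4 averaged lower in E47-ER cells. Whether the Lck difference is tied to these markers was not tested. Prkcq, a kinase downstream of Cd28, averaged 280.1 ± 12.99 CPM in E47-ER cells and 160.2 ± 31.7 CPM in GFP cells at 16 h and was not called (adjusted p = 0.0546). The PI3K subunits Pik3r1 and Pik3cd were not called either: Pik3r1 averaged 159.8 ± 4.18 CPM in E47-ER cells and 106 ± 17.5 CPM in GFP cells at 16 h, and Pik3cd 871 ± 67.5 CPM in E47-ER cells and 571 ± 169 CPM in GFP cells (SD, n = 2 each). All 3 were called at 16 h when either GFP library of that time was left out. At 4 h Prkcq (adjusted p = 0.880) and Pik3r1 (adjusted p = 1.0) were not called, and of the pair Prkcq was called when either GFP library at 16 h was left out. Prkcq averaged 243 ± 2.21 CPM in E47-ER cells and 190.7 ± 14.1 CPM in GFP cells, and Pik3r1 145 ± 2.61 CPM in E47-ER cells and 121 ± 9.96 CPM in GFP cells (SD, n = 2 each).

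**Figure D4:**
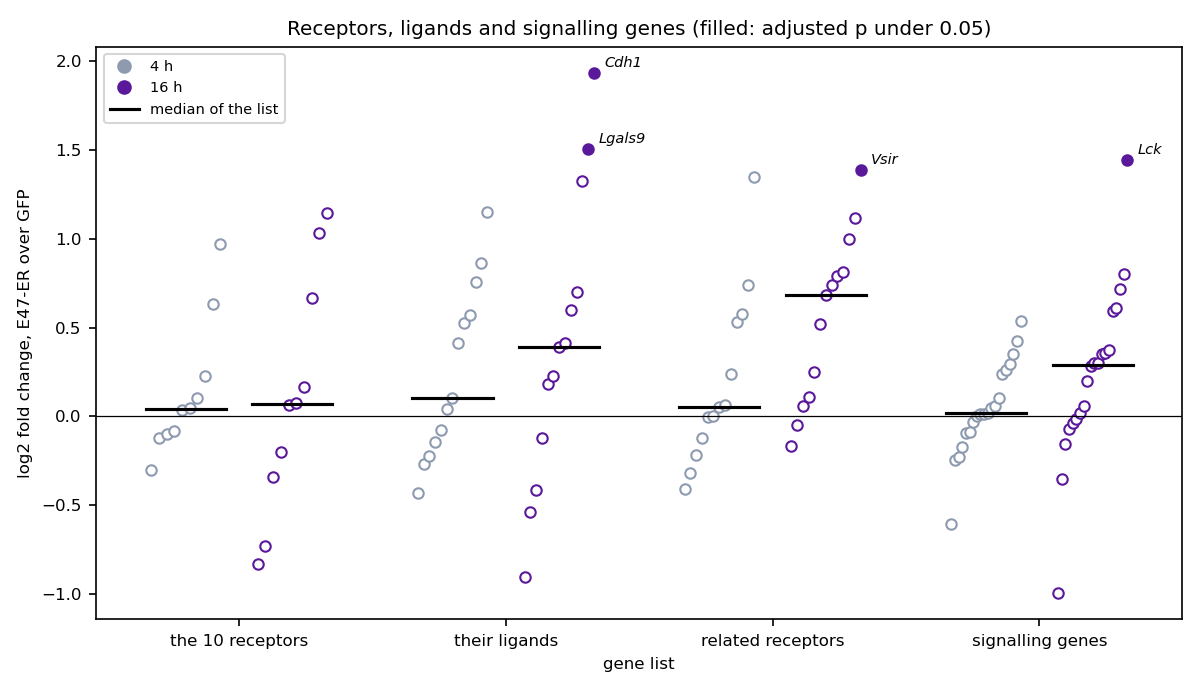
Log2 fold change of E47-ER over GFP at 4 h (grey) and 16 h (purple) for each tested gene of 4 lists: the 10 receptors, 13 ligands, 13 related receptors and 20 signalling genes; bars are list medians and filled points have an adjusted p under 0.05. The 4 filled points are Cdh1, Lgals9, Vsir and Lck at 16 h, and no receptor of the group is filled.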

How the data were processed

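Bulk RNA sequencing counts of 8 libraries, in 4 groups of 2, were used as deposited by the authors: raw whole-number counts, 1 value per Ensembl gene and library. The submitters' processing notes name mm10 as the build and DESeq2 as a tool, without its version or role. The aligner, counter, strandedness and annotation release were not given in the sources used here. GENCODE M21 (GRCm38) gave symbols for 50462 of 50686 identifiers and exon lengths. No exon of the 10 receptors overlapped another gene there.

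These counts were fitted with edgeR 4.0.16 (R 4.3.3): filterByExpr with a minimum count of 10 left 13644 genes, libraries were scaled by TMM, and a robust quasi-likelihood model took all 8 libraries, with a mean for each group. Tests were two-sided, with Benjamini-Hochberg adjustment over all tested genes separately in each comparison, and adjusted values under 0.05 were called. The comparisons share libraries. Intervals at 95% use the model's standard error, obtained from the log2 fold change and the F statistic. CPM are counts relative to the TMM-scaled library, and CPM per kb divide them by union exon length.

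The receptors, gene lists and tests were chosen with earlier results of these data known. All 10 receptors were named, as were listed ligands, related receptors and signalling genes that were called, filled up to 4 per list by smallest p. Some listed genes are not reported here. Alternatives were DESeq2 1.42.0, RLE scaling, no filter, a minimum count of 30, limma 3.58.1 voom with quality weights, only the 4 libraries compared, a replicate block, each library left out in turn and, added after the data were seen, library totals only. The fit was also run on simulated counts in which no library was shifted by transcript length, so that run does not cover such a shift. Python 3.11.15 and matplotlib 3.10.9 drew the figures.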

Additional observations from a re-analysis of the deposited data

How the results depend on the processing

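Each group held 2 libraries, and calls depended on which libraries were kept. The count of receptors called for E47-ER against GFP at 4 h, 0 with all libraries, was 1 with limma voom and with only the 4 libraries compared, and 0 to 1 with 1 library left out (Pdcd1 each time, without either GFP library at 16 h). At 16 h it was 2 with DESeq2 (Pdcd1, Tigit), 3 with no filter on low counts (Pdcd1, Tigit, Klrg1), 1 with library totals only (Pdcd1), a setting chosen after seeing the data, and 0 to 6 with 1 library left out. For the difference between times it was 0 to 2 with 1 library left out. For 16 h against 4 h it was 1 with limma voom, 2 with only the 4 libraries compared and 0 to 2 with 1 library left out in E47-ER cells, and 0 to 2 with 1 library left out in GFP cells. Listed genes called at 4 h (0 with all libraries) were 2 with DESeq2, 3 with no filter, 4 with limma voom, 8 with only the 4 libraries compared and 0 to 12 with 1 library left out. At 16 h (4 with all libraries) they were 8 with DESeq2, 11 with no filter, 2 with limma voom, 0 with only the 4 libraries compared and 1 to 25 with 1 library left out. The cause was not tested. Over all tested genes, DESeq2 called 122 of 13379 at 4 h and 1052 of 11792 at 16 h. No filter gave 165 and 1816 of 29929, and limma voom 401 and 52 of 13644. Only the 4 libraries compared gave 442 of 13087 at 4 h and 6 of 13101 at 16 h. Library totals only gave 188 of 13644 at 16 h. For 16 h against 4 h in E47-ER cells, limma voom called 377 of 13644. Only the 4 libraries compared gave 957 of 13075 there. Called genes over all tested genes at 4 h were 39 with all libraries, 612 without replicate 2 and 619 without replicate 1 of GFP at 16 h, and at 16 h 217, 1262 and 7022. With 1 library left out, 7 log2 fold changes changed sign at 4 h, none of them called: Cd28 ranged from -0.13 to 0.22, Ctla4 from -0.19 to 0.021, Lag3 from -0.50 to 0.22, Havcr2 from -0.27 to 0.028, Tigit from -0.0079 to 0.21, Cd200r1 from -0.0036 to 0.10 and Klrg1 from -0.59 to 0.055. At 16 h Icos ranged from -0.018 to 0.19 and Cd28 from -0.081 to 0.49. Pdcd1 and Btla kept a positive sign under every alternative run, as did Tigit at 16 h, and Lag3, Havcr2 and Klrg1 a negative one at 16 h. Library totals moved the median log2 fold change of all genes to 0.115 at 16 h, 0.125 for the difference between times and -0.106 for 16 h against 4 h in GFP cells. The labels number the replicates 1 and 2 in each group without saying whether equal numbers mark pairs, and the main fit took no pairs. Deviations of same-numbered libraries correlated at -0.09 to 0.20. With 2 libraries per group that is 1 value per pair of groups, which cannot decide whether the numbers mark pairs. With the replicate block across all groups 0 receptors were called at 4 h, where 28 of 13644 genes were, and 0 at 16 h, where 195 of 13644 were. The block left 4 listed genes called at 16 h, and no call of a receptor or listed gene changed.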
